A study of Mus musculus with 107 samples.

Results

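The genes described here make the coat of the mouse egg (Zp1, Zp2 and Zp3), the protease that cuts that coat (Astl, encoding ovastacin) and the egg surface proteins at which sperm attach and fuse (Izumo1r, Cd9 and Cd81). These 7 genes were chosen by name, from what is known of fertilization, out of 21564 gene symbols counted in single eggs. The choice was made with earlier results of these data known, so it was not independent of them. All 7 were found in the count table and all 7 passed the filter on low counts.

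The eggs came from C57BL/6J females 2 to 3 months old that had received 5 IU of PMSG, a hormone that makes follicles grow, 48 h earlier. All were isolated as germinal vesicle oocytes in 2.5 µM milrinone, matured in culture and collected 38 to 40 h after germinal vesicle breakdown. The mos -/- eggs, homozygous for a mutation of the kinase gene Mos, carried the group names M1 (22 eggs), M2 (18 eggs) and M3 (21 eggs), which the labels do not define. A set of 17 activated eggs was wildtype and had spent 2 h in 10 mM strontium chloride without calcium, starting 15 to 16 h after germinal vesicle breakdown, a treatment that starts development without sperm. The 29 untreated wildtype eggs were the controls for both. The deposited egg table also lists a number of growths, undefined in the sources used here, which was 1 for 8 of the activated eggs and 2 for the other 9.

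Batch 1 held 4 M1, 2 M2, 3 M3 and 5 wildtype eggs with 2609358 to 9132471 counts each. Batch 2 held the other eggs at lower depth, with a median of 605366 counts in mutant, 796582 in activated and 207420 in wildtype eggs. In batch 2 each of the mutant, activated and wildtype sets had plates of its own, so plate cannot be told apart from genotype or treatment there. In batch 1, by the deposited egg table, plate A held 2 mutant and the 5 wildtype eggs and plate B held 7 mutant eggs. Levels of single eggs are given below for the 104 eggs with at least 10000 counts, since 3 mutant eggs of batch 2 held too few. Mos itself was at 3.08 and 7.98 raw CPM (counts scaled to a common total, with no other correction) in the mutant sums of batches 1 and 2, at 5.33 in activated eggs, and at 6.52 and 31.6 in the wildtype sums. Which part of Mos the mutation removes or alters is unknown here, so reads of Mos do not check the labels. Oocyte markers were present in every group: all 11 had counts in each of the 9 sums of eggs of a group and batch.

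As background, the zona pellucida is built from long filaments of ZP2 and ZP3 that ZP1 links together, and it is secreted while the oocyte grows. After a sperm has entered, cortical granules release ovastacin, which cuts ZP2 so that further sperm no longer bind. Sperm IZUMO1 binds JUNO, the product of Izumo1r, which is held in the egg membrane by a glycosylphosphatidylinositol (GPI) anchor. The tetraspanins CD9 and CD81 sit in the same membrane, and mouse eggs without CD9 rarely fuse with sperm. Transcription of these genes stops once the oocyte is fully grown, so the levels in eggs are those of stored messenger RNA. FIGLA, a transcription factor of the oocyte, is known in mouse to act on the zona genes through E-boxes, DNA motifs of the form CANNTG.

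The promoters of members whose levels are described below are shown first because an E-box is the motif by which FIGLA is known to act on this family. RefSeq promoter windows (build GRCm38.p6) were held for 5 of the 7 members, and Zp1 and Zp2 are named only. The lines below run 5′ to 3′ on the gene's strand, and bases of the annotated gene at the 3′ end of a window were left out. Capitals mark each CANNTG, which reads the same way on both strands, and positions are counted back from RefSeq's start.
Zp3 (chr5:135979855-135980098, plus strand): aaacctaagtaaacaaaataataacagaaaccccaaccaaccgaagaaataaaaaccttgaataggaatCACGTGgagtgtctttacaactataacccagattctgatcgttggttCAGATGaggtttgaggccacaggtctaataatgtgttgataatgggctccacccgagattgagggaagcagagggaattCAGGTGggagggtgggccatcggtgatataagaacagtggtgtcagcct
Astl, upstream start (chr2:127338389-127338638, plus strand): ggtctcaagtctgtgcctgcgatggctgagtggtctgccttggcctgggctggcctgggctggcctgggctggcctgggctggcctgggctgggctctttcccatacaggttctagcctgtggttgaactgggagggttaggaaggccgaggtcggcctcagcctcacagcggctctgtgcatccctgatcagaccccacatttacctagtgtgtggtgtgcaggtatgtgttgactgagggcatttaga
Astl, internal start (chr2:127341386-127341635, plus strand): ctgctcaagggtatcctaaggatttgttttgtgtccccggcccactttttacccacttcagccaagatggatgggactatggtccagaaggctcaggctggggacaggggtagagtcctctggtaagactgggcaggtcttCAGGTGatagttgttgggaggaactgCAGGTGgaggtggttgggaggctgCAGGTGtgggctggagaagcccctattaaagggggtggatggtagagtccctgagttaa
Cd9 (chr6:125494792-125495010, minus strand): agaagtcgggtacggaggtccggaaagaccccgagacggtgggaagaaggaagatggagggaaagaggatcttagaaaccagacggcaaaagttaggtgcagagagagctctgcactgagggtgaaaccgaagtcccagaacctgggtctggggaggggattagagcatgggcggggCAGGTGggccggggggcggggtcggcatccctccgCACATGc

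The Zp3 window held 3 E-boxes, starting at -181, -134 and -55, and the first of these was CACGTG. The internal start of Astl, which lies inside the annotated gene, held 3 copies of CAGGTG at -109, -83 and -59, while its upstream start held 0. Cd9 held 2 E-boxes, at -73 and -38. Cd81 held 1 in a window of 239 bases and Izumo1r 0 in a window of 68 bases. E-boxes are frequent: of 32851 promoter windows in the table, 66.2% held at least 1, 31.8% at least 2 and 12.2% at least 3. CACGTG was in 6.02% of windows, and CAGGTG or its reverse complement CACCTG in 17.2%. These matches describe letters and show no binding.

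The coat genes share a feature of their transcripts that the choice of genes did not use. In the reference annotation (GENCODE M21, GRCm38) the 3′ UTR of the main transcript was 34 bases in Zp1, 49 in Zp2 and 13 in Zp3, against a median of 759 over 18982 coding genes. Those of Izumo1r (333 bases), Cd9 (395) and Cd81 (560) were longer, and that of Astl (876) was above the median. On the genome the members are spread out: Zp1 lies at chr19:10914287-10920632 (minus strand), Zp2 at chr7:120126772-120145291 (minus), Zp3 at chr5:135980099-135988624 (plus) and Astl at chr2:127338639-127357651 (plus). Izumo1r lies at chr9:14885814-14903949 (minus), Cd9 at chr6:125460266-125494791 (minus) and Cd81 at chr7:143052739-143067934 (plus). Cd9 overlaps Gm28809 and Gm26728, and Cd81 overlaps R74862, all on the opposite strand. The library kit does not mark strand, so strand cannot separate reads where these genes overlap. Overlap was taken over whole gene spans, and whether exons overlap was not tested.

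The question put to the coat genes was how their stored transcripts differ in mutant eggs and after activation from those of wildtype eggs. Among 7 members, 2 were higher and 1 was lower in mutant than in wildtype eggs, in a test over sums of counts per group and batch (edgeR quasi-likelihood, Benjamini-Hochberg adjusted p under 0.05). Over all 13832 genes tested, 9.38% passed, 5.36% as higher and 4.03% as lower. In activated against wildtype eggs 3 members were lower and 0 higher, beside 13% of all genes called, 5.66% as higher and 7.33% as lower. The 2 higher in mutants were the fusion genes Cd9 and Izumo1r, and the 1 lower was the coat gene Zp1. The 3 lower in activated eggs were Zp1, Zp3 and Astl. The mutant fold is the mean over M1, M2 and M3 against wildtype, and the activated eggs are 1 sum with no replicate of their own. Both comparisons share the wildtype sums. Activated eggs lay in batch 2 only, but through the shared batch term their folds also draw on sums of batch 1.

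**Figure D1:**
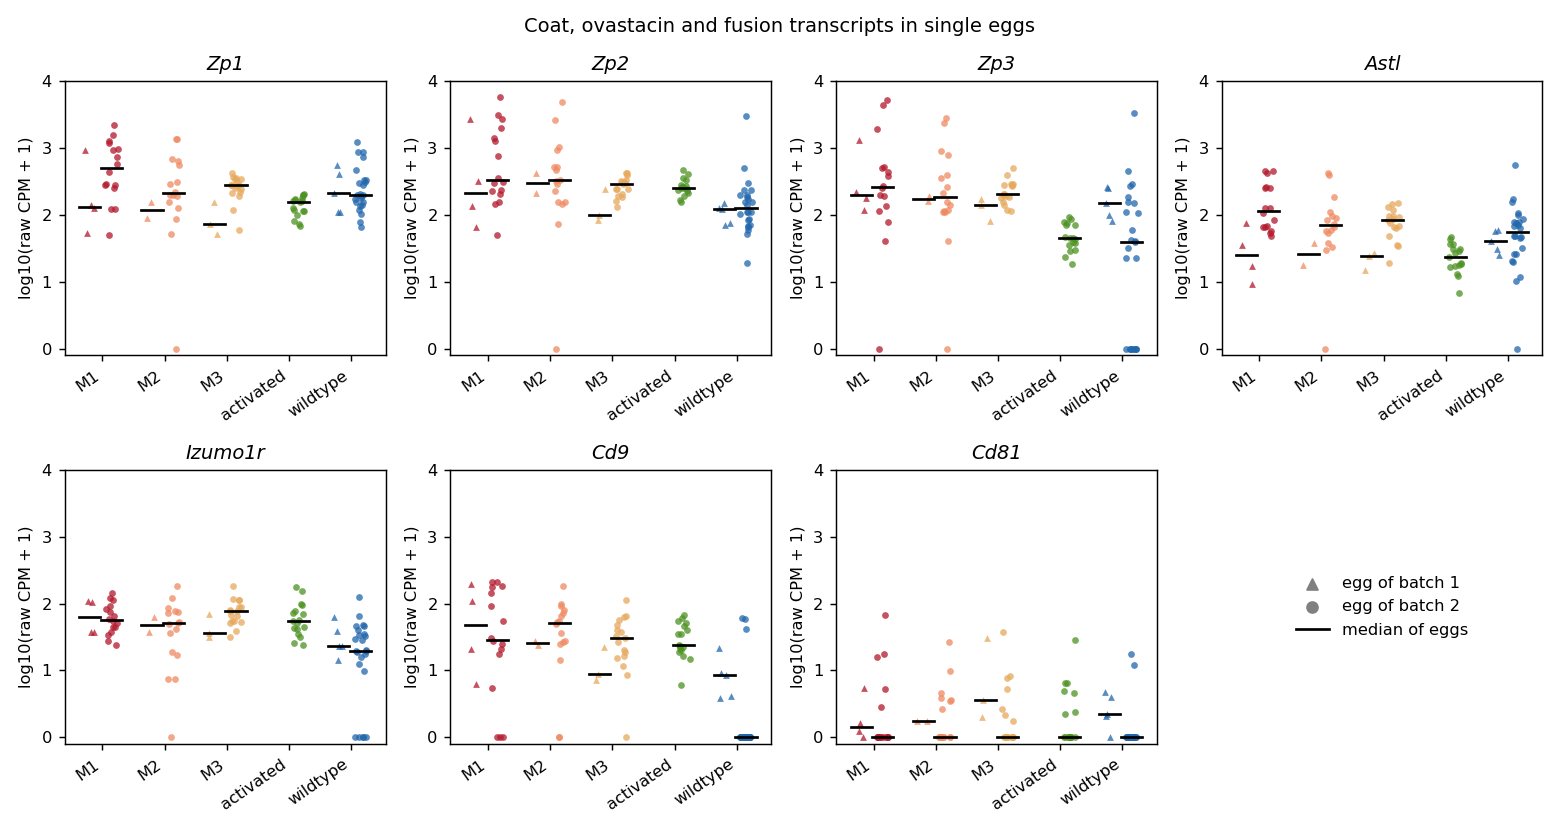
Level of each gene in single eggs, as log10(raw CPM + 1), by group, with triangles for eggs of batch 1, circles for eggs of batch 2 and a line at the median of each set. Zp3 of activated eggs forms a tight band between 17.3 and 92.6 raw CPM, while wildtype eggs of batch 2 spread between 0 and 3364, and most wildtype eggs of batch 2 hold 0 counts of Cd9.

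ZP1 links the filaments of the coat. Among M1 eggs of batch 1, Zp1 was at 918, 138.8, 126 and 52.6 raw CPM. The M2 eggs of that batch held 152 and 87.6 raw CPM of Zp1, and the M3 eggs 156, 70.9 and 51.1. The 5 wildtype eggs of batch 1 held 560.1, 407, 213, 108.6 and 108.2. Apart from M1 egg 6, at 918, every mutant egg of batch 1 lay below the 3 highest wildtype eggs. In batch 2, M1 eggs ran from 48.6 over a median of 509 to 2192 raw CPM of Zp1, M2 eggs from 0 over 209 to 1369, and M3 eggs from 58.4 over 277 to 417. Activated eggs ran from 68.3 over a median of 154 to 202, and wildtype eggs of batch 2 from 65.02 over 197 to 1222. All groups of batch 2 overlapped, and activated eggs lacked the high values seen in the other groups.

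The fitted log2 fold of Zp1 in mutant against wildtype eggs was -0.70 ± 0.20 (SE, edgeR adjusted p = 0.0360). In raw CPM, the sum of all mutant eggs against the wildtype sum differed between batches in its direction. The fitted change of the mutant effect between batches, described below, was not called for Zp1 (0.80 ± 0.95, edgeR adjusted p = 0.894). Its standard error is too wide to show that the batches agree. In batch 1 the mutant sum stood at 0.642 of the wildtype sum (95% interval 0.625 to 0.659, counting error only), and in batch 2 at 1.09 (1.04 to 1.15). M1 egg 6 held 48.8% of the Zp1 counts of the mutant sum of batch 1, and without it that sum stood at 104 raw CPM, 0.364 of the wildtype sum (0.353 to 0.376). In the fit, TMM scaling (edgeR's correction of library totals) put Zp1 of batch 2 at 561 CPM in M1, 330.1 in M2, 250.02 in M3 and 419.7 in wildtype. The call did not hold without the M1 sum of either batch or the wildtype sum of batch 1. Nor did it hold without the M2 or M3 sum of batch 1. In these fits the edgeR adjusted p lay between 0.0557 and 0.661 and the fold between -0.77 and -0.22. The call was also lost with eggs thinned to a common depth (-0.32 ± 0.22, edgeR adjusted p = 0.379). The same held with the mutant eggs in 1 sum (-0.54 ± 0.24, edgeR adjusted p = 0.185). As the mean over eggs of log2 CPM, the difference was -0.35 ± 0.23 (limma adjusted p = 0.453). In all, 14 of 25 alternatives lost the call of Zp1. In activated eggs Zp1 fell by 2.05 ± 0.36 on the log2 scale (edgeR adjusted p = 0.00105). Within batch 2 the activated sum held 143 raw CPM of Zp1, against 361 in the wildtype sum, a ratio of 0.396 (0.371 to 0.421). Without the wildtype sum of batch 1, a batch with no activated eggs, the activated log2 fold of Zp1 was -1.67.

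ZP2 is the coat protein that ovastacin cuts. Batch 1 M1 eggs held 2713, 318, 136 and 64.4 raw CPM of Zp2. The M2 eggs of batch 1 held 414 and 213, and the M3 eggs 244, 97.1 and 83.8, against 149.8, 126, 120.7, 75.6 and 70.4 in the wildtype eggs. In this batch 5 of the 9 mutant eggs lay above the highest wildtype egg. In batch 2, M1 eggs ran from 48.6 over a median of 335 to 5689.8 raw CPM of Zp2, M2 eggs from 0 over 325 to 4786, and M3 eggs from 131 over 293 to 419. Activated eggs ran from 156 over 251 to 467, and wildtype eggs from 18.3 over 126 to 2965. The median egg of each mutant group and of the activated set thus held more Zp2 than the median wildtype egg. The test on sums passed neither difference. The log2 fold of Zp2 was 0.74 ± 0.28 in mutants (edgeR adjusted p = 0.129) and -0.34 ± 0.41 in activated eggs (edgeR adjusted p = 0.669). The mutant fold of Zp2 passed without the wildtype sum of batch 2 (1.44 ± 0.28, edgeR adjusted p = 0.00420) or the M1 sum of batch 2 (0.89 ± 0.22, edgeR adjusted p = 0.0225). It was 0.17 ± 0.26 without the wildtype sum of batch 1 (edgeR adjusted p = 0.800). It also passed with eggs thinned to 60000 counts (1.18 ± 0.23, edgeR adjusted p = 2.18e-05), with the mutant eggs in 1 sum (1.02 ± 0.25, edgeR adjusted p = 0.00153), with no filter (0.74 ± 0.21, edgeR adjusted p = 0.00672) and under voom (0.89 ± 0.25, limma adjusted p = 0.0261). Of 25 alternatives to this test of Zp2, 11 passed. Without the wildtype sum of batch 2 the activated fold was 0.51 ± 0.36 (edgeR adjusted p = 0.481).

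ZP3 pairs with ZP2 in the filaments. Its levels in M1 eggs of batch 1 were 1334, 219.9, 177 and 116 raw CPM. The M2 eggs held 192 and 158 and the M3 eggs 169, 137.9 and 79.1 raw CPM of Zp3, against 259.95, 252, 148, 98.1 and 80.7 in wildtype eggs. Without M1 egg 6 the mutant eggs of batch 1 lay within the span of the wildtype eggs, except for 1 M3 egg just under it. In batch 2, M1 eggs ran from 0 over a median of 259 to 5239 raw CPM of Zp3, M2 eggs from 0 over 183 to 2763, and M3 eggs from 112 over 201 to 496. Activated eggs ran from 17.3 over 44.2 to 92.6, and wildtype eggs from 0 over 38.9 to 3364. The activated and wildtype medians were thus close to each other, and the mutant medians lay above both. Counts of Zp3 were found in 47 of 49 mutant, 17 of 17 activated and 16 of 24 wildtype eggs of batch 2.

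For Zp3 the sums of counts gave a different picture from the eggs. The log2 fold of the sums was -0.13 ± 0.22 in mutants (edgeR adjusted p = 0.824) and -2.99 ± 0.40 in activated eggs (edgeR adjusted p = 1.38e-04). When each egg counted equally, as the mean over eggs of log2 CPM, the mutant difference was 1.45 ± 0.25 (limma adjusted p = 9.85e-07) and the activated difference -0.51 ± 0.39 (limma adjusted p = 0.483). By this measure 4 members were higher in mutants (Zp2, Zp3, Izumo1r and Cd9), beside 11.1% of all genes called. In activated eggs 2 were higher (Izumo1r and Cd9) and 2 lower (Zp1 and Astl), beside 14.4% of all genes. A count of 0 scores higher in a shallow egg on this scale, and wildtype eggs of batch 2 were the shallowest.

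Most of the Zp3 counts of the wildtype sum of batch 2 came from 1 egg. Wildtype egg 45 held 1509 of its 1923 Zp3 counts, or 78.5%, at 3364 raw CPM, where the next wildtype egg held 451 and the median of the other wildtype eggs was 38.7. The same egg held 66.8% of the Zp2 counts of that sum, 52.0% of Cd9, 45.5% of Astl and 27.9% of Zp1, but 7.30% of Izumo1r. It had 448563 counts in all. The wildtype sum of batch 2 therefore stood at 354 raw CPM of Zp3 with this egg and at 83.0 without it. The activated sum, at 49.3 raw CPM, was 0.139 of the wildtype sum with egg 45 (0.127 to 0.152) and 0.594 of that without it (0.525 to 0.673). The mutant sum, at 337 raw CPM, was 0.952 of the wildtype sum with the egg (0.907 to 0.9995) and 4.06 times the sum without it (3.68 to 4.49), the mutant sum keeping its own highest eggs. With the egg of highest zona level left out of each sum of a group and batch, the ratio was 3.73 in batch 2 (3.38 to 4.13) and 1.03 in batch 1 (0.987 to 1.07).

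**Figure D2:**
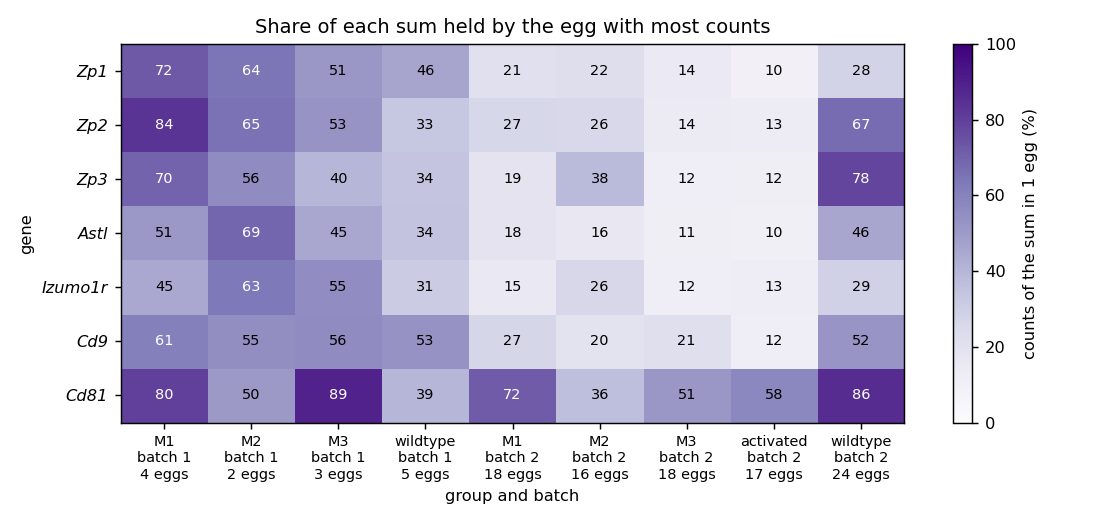
Share of the counts of each gene, in percent, that came from the egg with most counts, for each of the 9 sums of a group and batch. In the wildtype sum of batch 2 a single egg held 78.5% of Zp3 and 66.8% of Zp2, and in the M1 sum of batch 1 a single egg held 83.6% of Zp2, while in activated eggs no egg held more than 13.3% of any member but Cd81.

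With wildtype egg 45 left out, a choice made after its values were seen, the zona results changed as follows. The mutant fold of Zp2 became 1.49 ± 0.22 (edgeR adjusted p = 1.88e-04), that of Zp3 0.78 ± 0.34 (edgeR adjusted p = 0.171) and that of Zp1 -0.60 ± 0.22 (edgeR adjusted p = 0.0929). The members called in mutants were then Zp2, Izumo1r and Cd9, all 3 higher, beside 12.2% of all genes. The activated fold of Zp3 became -1.85 ± 0.55 (edgeR adjusted p = 0.0424) and that of Zp2 0.59 ± 0.31 (edgeR adjusted p = 0.231). Zp1, Zp3 and Astl were still the 3 members called lower in activated eggs, beside 14.4% of all genes. A fall of Zp3 after activation was thus called with and without the egg, but at a smaller size without it. It was also called as log2 of mean CPM over eggs (-2.40 ± 0.34, limma adjusted p = 0.00119), but not as the mean over eggs of log2 CPM.

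Leaving out egg 45 alone trims only the wildtype side. With the egg of highest zona level left out of each of the 9 sums, a choice also made after the values were seen, the mutant fold was 0.85 ± 0.25 for Zp2 (edgeR adjusted p = 0.0410), 0.47 ± 0.32 for Zp3 (edgeR adjusted p = 0.426) and -0.71 ± 0.29 for Zp1 (edgeR adjusted p = 0.147). The mutant call of Izumo1r was lost (0.73 ± 0.25, edgeR adjusted p = 0.0765), and Zp2 and Cd9 were then the members called, beside 1407 of 13595 genes. The activated fold of Zp3 was -1.97 ± 0.52 (edgeR adjusted p = 0.0297).

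**Figure D3:**
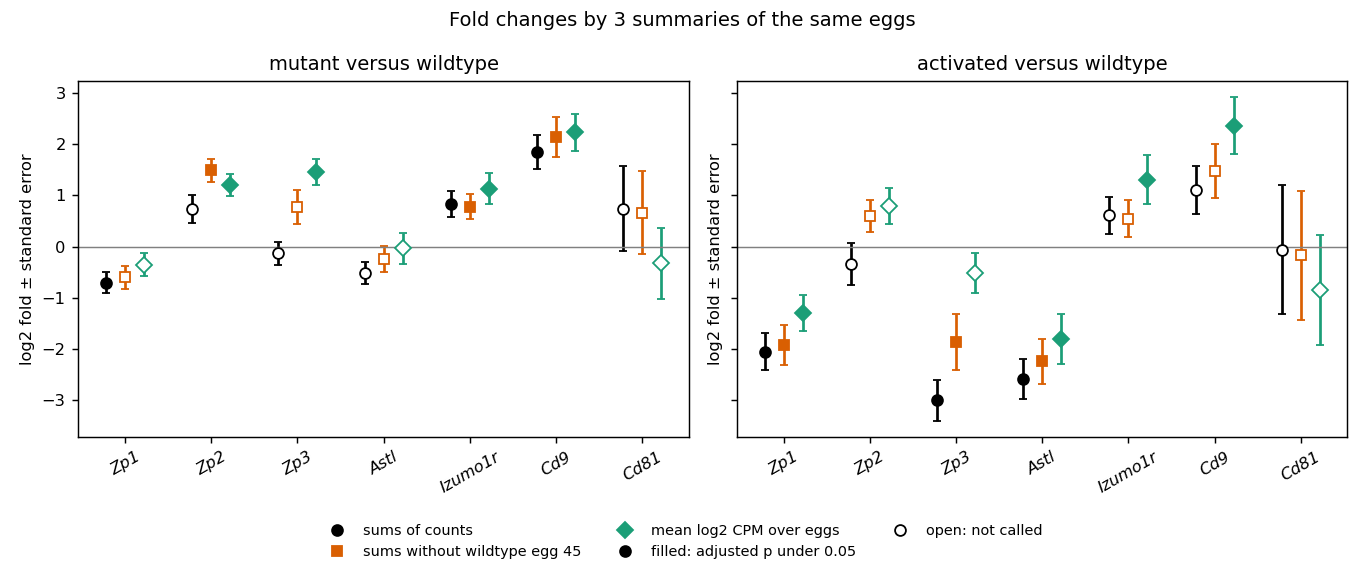
Log2 fold with its standard error for each gene, in mutant (left) and activated (right) against wildtype eggs, from sums of counts, from sums without wildtype egg 45 and from the mean log2 CPM over eggs of at least 10000 counts; filled symbols passed an adjusted p of 0.05. Zp3 moves most between summaries, with -0.13, 0.78 and 1.45 in mutants, whereas Cd9 lies at 1.85, 2.14 and 2.23.

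Ovastacin, the product of Astl, is the cortical granule protease of the block to further sperm. Its transcript stood at 73.3, 34.2, 16.4 and 8.36 raw CPM in M1 eggs of batch 1. M2 eggs held 36.5 and 16.8 raw CPM of Astl and M3 eggs 25.5, 22.9 and 13.8, against 58.1, 55.6, 39.6, 30.1 and 23.8 in wildtype eggs. In batch 2 it ran from 46.8 over a median of 115.4 to 449 in M1 eggs, from 0 over 69.1 to 421 in M2 eggs and from 17.8 over 82.3 to 152 in M3 eggs. Activated eggs ran from 5.88 over 22.7 to 46.2 raw CPM of Astl, and wildtype eggs from 0 over 54.3 to 557. The median activated egg thus lay below the median of each other group of its batch. The log2 fold of Astl was -2.59 ± 0.39 in activated eggs (edgeR adjusted p = 2.95e-04) and -0.52 ± 0.22 in mutants (edgeR adjusted p = 0.154). Within batch 2 the activated sum of Astl stood at 0.236 of the wildtype sum (0.205 to 0.271), and at 0.398 (0.339 to 0.467) of that sum without egg 45. Unlike Zp3, Astl was also lower in activated eggs by the mean over eggs, at -1.80 ± 0.49 (limma adjusted p = 0.00285).

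JUNO, from Izumo1r, is the receptor for sperm IZUMO1. The transcript stood at 109.4, 104, 36.3 and 36.2 raw CPM in M1 eggs of batch 1. M2 eggs of batch 1 held 61.4 and 36.3 raw CPM of Izumo1r and M3 eggs 69.6, 34.8 and 30.6, against 62.5, 37.6, 22.3, 22.04 and 13.47 in wildtype eggs. Every mutant egg of batch 1 exceeded the 3 lowest wildtype eggs. In batch 2 Izumo1r ran from 23.005 over a median of 55.7 to 141.1 in M1 eggs, from 0 over 49.7 to 179.9 in M2 eggs and from 30.3 over 75.5 to 179 in M3 eggs. Activated eggs ran from 22.7 over 53.9 to 179, and wildtype eggs from 0 over 18.8 to 124.3. Summed levels of mutant eggs were 2.25 times those of wildtype eggs in batch 1 (2.09 to 2.42) and 2.08 times in batch 2 (1.78 to 2.43). The log2 fold was 0.84 ± 0.25 in mutants (edgeR adjusted p = 0.0400) and 0.61 ± 0.36 in activated eggs (edgeR adjusted p = 0.314). The mutant call of Izumo1r was near the threshold. It was lost without the M1 or M2 sum of batch 1, the M2 or M3 sum of batch 2 or either wildtype sum (edgeR adjusted p between 0.0863 and 0.193, fold 0.70 to 0.93), and under RLE scaling (edgeR adjusted p = 0.0518). It was also lost with eggs thinned (0.98 ± 0.37, edgeR adjusted p = 0.0596), without 9 wildtype eggs in which 50 genes held over 35% of counts (0.80 ± 0.25, edgeR adjusted p = 0.0657) and with the mutant eggs in 1 sum (0.83 ± 0.32, edgeR adjusted p = 0.0842). In all, 13 of 25 alternatives lost the call of Izumo1r.

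CD9 is the tetraspanin that mouse eggs need for sperm fusion. The M1 eggs of batch 1 held 197, 107.4, 19.8 and 5.25 raw CPM of Cd9. M2 eggs held 26.6 and 22.6 and M3 eggs 21.6, 7.89 and 6.26, against 20.4, 8.13, 7.66, 3.19 and 2.85 in wildtype eggs. In batch 2 Cd9 ran from 0 over a median of 27.8 to 211 raw CPM in M1 eggs, from 0 over 50.9 to 182 in M2 eggs and from 0 over 29.0 to 113 in M3 eggs. Activated eggs ran from 4.96 over 22.7 to 66.1. In wildtype eggs the median was 0 and the highest 59.3, and 3 of 24 held any count of Cd9. Depth differed between these groups. With every egg thinned to 60000 counts, Cd9 was seen in 36 of 49 mutant, 15 of 17 activated and 3 of 24 wildtype eggs of batch 2, and in 6 of 9 mutant and 2 of 5 wildtype eggs of batch 1. Cd9 rose in mutants, with a fold of 1.85 ± 0.34 on the log2 scale (edgeR adjusted p = 0.00217) and summed levels 5.02 times those of wildtype in batch 1 (4.46 to 5.68) and 5.45 times in batch 2 (4.12 to 7.38). Without M1 egg 6 the ratio of Cd9 in batch 1 was 3.004 (2.65 to 3.41), and without wildtype egg 45 that in batch 2 was 10.4 (6.98 to 16.3). In activated eggs the log2 fold of Cd9 was 1.11 ± 0.47 (edgeR adjusted p = 0.136), and by the mean over eggs 2.37 ± 0.55 (limma adjusted p = 3.95e-04). The mutant call of Cd9 held without each of the 9 sums in turn and without egg 45.

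CD81, a tetraspanin related to CD9, was the rarest transcript of the set. In batch 1, Cd81 was at 4.38, 0.650, 0.236 and 0 raw CPM in M1 eggs. M2 eggs held 0.754 and 0.733 and M3 eggs 29.6, 2.63 and 0.995, against 3.83, 3.06, 1.23, 1.09 and 0 in wildtype eggs. The median was 0 in every group of batch 2. Counts of Cd81 were seen there in 19 of 49 mutant, 7 of 17 activated and 2 of 24 wildtype eggs, and the wildtype sum held only 7 counts. At this depth no difference was detectable: the log2 fold of Cd81 was 0.74 ± 0.83 in mutants (edgeR adjusted p = 0.686) and -0.06 ± 1.26 in activated eggs (edgeR adjusted p = 0.994).

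Mutant and activated eggs can also be set against each other. Among 7 members 3 were higher in mutant than in activated eggs and 0 lower, beside 4.84% of all genes called, 3.43% as higher and 1.42% as lower. These were Zp3 at 2.86 ± 0.38 (edgeR adjusted p = 3.38e-04), Astl at 2.07 ± 0.36 (edgeR adjusted p = 0.00233) and Zp1 at 1.34 ± 0.32 (edgeR adjusted p = 0.0191), all log2 folds. Within batch 2 the mutant sum held 6.83 times as much Zp3 as the activated sum (6.32 to 7.40), 4.35 times as much Astl (3.88 to 4.89) and 2.77 times as much Zp1 (2.64 to 2.90). Zp2 did not pass, at 1.08 ± 0.40 (edgeR adjusted p = 0.162), nor did Cd9 at 0.74 ± 0.43 (edgeR adjusted p = 0.405) or Izumo1r at 0.22 ± 0.33 (edgeR adjusted p = 0.803). The Zp3 and Astl differences were also called by the mean over eggs, at 1.964 ± 0.35 (limma adjusted p = 9.92e-06) and 1.77 ± 0.43 (limma adjusted p = 0.00236). That of Zp1 was lost without the batch 2 sum of M1 or of M2 (edgeR adjusted p = 0.0723 and edgeR adjusted p = 0.0733, fold 1.35 and 1.18), and that of Zp2 passed without the M1 sum of batch 2 or either wildtype sum (edgeR adjusted p between 0.0314 and 0.0487, fold 0.91 to 1.38).

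Across the 3 comparisons, calls rested on sums per group and batch with a batch term. With sums per plate, 0 members passed in mutants and 1, Zp3, in activated eggs against wildtype. Without a batch term 0 passed in either, and mutant against activated eggs gave 0 under both settings. Whether the mutant difference itself changed between batches was tested as an interaction, which called 0.0% of 13832 genes (edgeR, 1146 at an unadjusted p under 0.05) and 0 members. This fit took M1, M2 and M3 as replicates of a single mutant group, beside the wildtype sum of each batch. Standard errors of the members ran from 0.43 (Izumo1r) to 2.09 (Cd81) on the log2 scale, too wide to show that the batches agree.

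Levels of different members can be compared per kilobase of transcript within a sum. In the wildtype sum of batch 2 the order, in raw CPM per kilobase, was Zp3 (267), Zp1 (184), Zp2 (165), Astl (44.9), Izumo1r (25.4), Cd9 (7.49) and Cd81 (0.840). In the activated sum it was Zp2 (124.1), Zp1 (72.8), Izumo1r (46.4), Zp3 (37.3), Cd9 (23.985), Astl (10.6) and Cd81 (1.59). Zp3 thus stood first in the wildtype sum of that batch and behind Zp2, Zp1 and Izumo1r in the activated sum. A zona gene came first in all 9 sums and Cd81 last in all 9. Without egg 45 the wildtype sum of batch 2 held 283.7 raw CPM of Zp1, 132.5 of Zp2 and 83.0 of Zp3, so the place of Zp3 at the top rests on that egg.

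The mutant names M3, M2 and M1 were compared within plates. Zp1, Zp2, Zp3 and Astl were lower in M3 than in M1 on every plate, and so were Zp1, Zp2 and Astl in M2. Zp3 was lower in M2 than in M1 in batch 1 and on plate 1 only. For Zp2, M3 eggs stood at 148, 314 and 242 TMM-scaled CPM in batch 1, plate 1 and plate 2, M2 eggs at 322, 512 and 666, and M1 eggs at 742, 799 and 767. For Zp1 the values in the same order of plates were 97.5, 294 and 236 in M3, 124.1, 311 and 391 in M2, and 289.7, 666 and 572 in M1. On plate 2, Zp3 was at 219 in M3, 579 in M2 and 365 in M1. Izumo1r showed no such order, with 50.5, 64.8 and 74.6 in M3, 50.5, 65.8 and 67.04 in M2, and 73.2, 55.9 and 62.5 in M1.

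No member passed the test between these groups, nor did any gene. For M3 against M1 the log2 folds were -1.79 ± 0.23 for Zp2 (edgeR adjusted p = 0.0502), -1.35 ± 0.20 for Zp1 (edgeR adjusted p = 0.0593), -1.34 ± 0.30 for Zp3 (edgeR adjusted p = 0.397) and -0.80 ± 0.22 for Astl (edgeR adjusted p = 0.520). For M2 against M1 they were -0.95 ± 0.19 for Zp1 (edgeR adjusted p = 0.555), -0.69 ± 0.23 for Zp2 (edgeR adjusted p = 0.779), -0.60 ± 0.22 for Astl (edgeR adjusted p = 0.781) and -0.51 ± 0.30 for Zp3 (edgeR adjusted p = 0.829). Of 11009 genes tested, edgeR called 0.0% in M3 against M1 (866 genes at an unadjusted p under 0.05) and 0.0% in M2 against M1 (690 genes). DESeq2 called 60 genes in M3 against M1, 0.545% of those tested, among them Zp1, Zp2 and Zp3, all lower in M3. In M2 against M1 it called 28 genes, 0.254%, among them Zp1, lower in M2. Without the M1 sum of plate 1, edgeR called Zp2 (-1.92 ± 0.23, edgeR adjusted p = 0.00852) and Zp1 (-1.36 ± 0.20, edgeR adjusted p = 0.0240) in M3 against M1. Zp2 also passed without the M2 sum of batch 1 (-1.77 ± 0.23, edgeR adjusted p = 0.0324) or the M3 sum of plate 1 (-2.01 ± 0.25, edgeR adjusted p = 0.0311). Of 15 alternatives to the test of M3 against M1, 5 passed for Zp2, 3 for Zp1, 2 for Zp3 and 0 for Astl. In M2 against M1, 2 of 15 passed for Zp1. Within batch 1, M1 egg 6 alone held 83.6% of the Zp2, 72.5% of the Zp1 and 69.9% of the Zp3 counts of its sum.

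**Figure D4:**
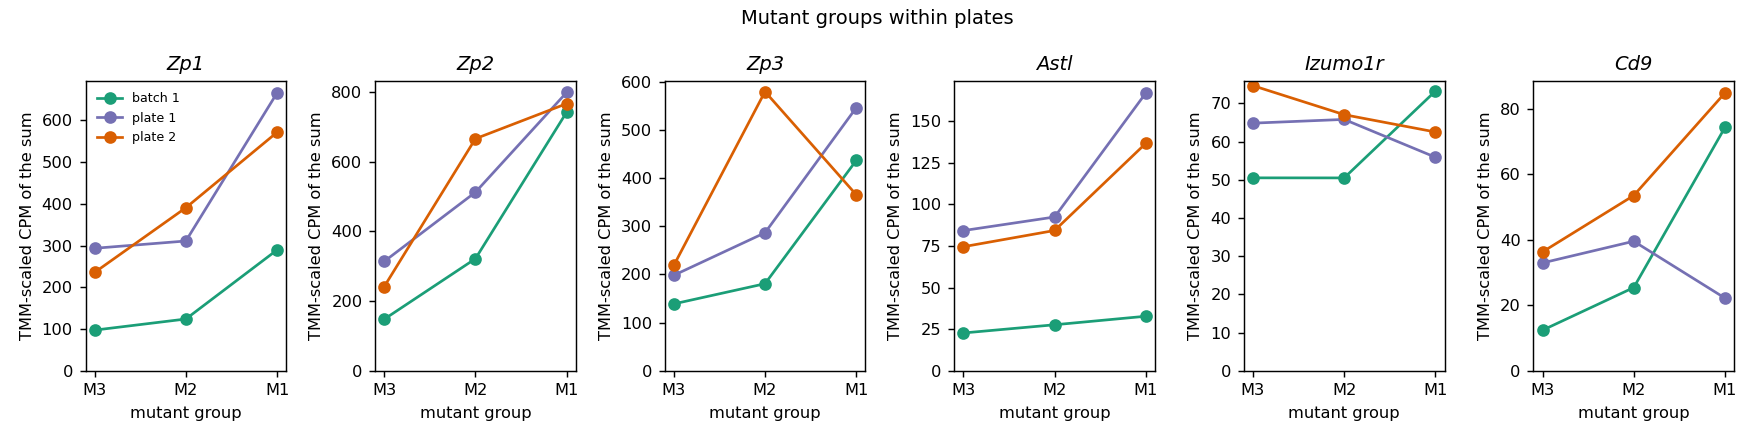
TMM-scaled CPM of 6 genes in the summed M3, M2 and M1 eggs of batch 1, plate 1 and plate 2, with lines joining the sums of the same plate. Zp1, Zp2 and Astl are highest in M1 on each plate, Zp3 is highest in M2 on plate 2, and Izumo1r has no common order.

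Coat transcripts varied strongly among eggs of the same group. The summed zona level (Zp1, Zp2 and Zp3) ran from 292 over a median of 934 to 13121 raw CPM in M1 eggs of batch 2, from 0 over 695 to 8499 in M2 eggs and from 329.8 over 781 to 1111 in M3 eggs. It ran from 259 over 436 to 678 in activated eggs, and from 149 over 414 to 7551 in wildtype eggs. More than 2000 raw CPM, a level set after the values were seen, was reached by 6 of 16 M1, 4 of 16 M2 and 0 of 17 M3 eggs of batch 2, by 0 of 17 activated and 1 of 24 wildtype eggs. In batch 1 it was reached by 1 of 4 M1 eggs and no other. More than 1000 raw CPM was reached by 7 of 16 M1, 7 of 16 M2 and 3 of 17 M3 eggs of batch 2, by 0 of 17 activated and 4 of 24 wildtype eggs. The highest were M1 egg 14 (13121 raw CPM, from a library of 66611 counts), M1 egg 22 (9046) and M2 egg 10 (8499), followed by wildtype egg 45 (7551). In the same order, the 11 oocyte markers other than the coat genes summed to 48836, 36906, 28261 and 35482 raw CPM in these eggs. The medians of these markers in batch 2 were 20950 in M1, 13055 in M2 and 13306 in wildtype eggs, so other oocyte transcripts were high in these named eggs as well. Over the 12 eggs of highest zona level the markers ran from 14500 over a median of 24080.5 to 48836 raw CPM. Another wildtype egg of batch 2 held more of them than egg 45, at 43474. At the other end, M2 egg 14 of batch 2 held 0 counts of all 7 members among 367681 counts, which allows up to 8.16 raw CPM of each (3 counts, counting error only). That egg had 400 counts of the oocyte growth factor Gdf9 and 1470 of Bmp15, and 2807 genes with counts, the fewest of any egg of at least 10000 counts. Its 11 other oocyte markers summed to 32618 raw CPM.

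The members varied together among eggs to different degrees. Among 49 mutant eggs of batch 2 Spearman's rho of raw CPM was 0.85 between Zp1 and Zp2, 0.77 between Zp2 and Zp3 and 0.76 between Zp1 and Astl. The rho of Cd9 with Zp2 was 0.69. That of Izumo1r with Zp2 was 0.01 over these eggs, -0.18 within M1, 0.37 within M2 and -0.13 within M3 eggs. Within M2 eggs (16) the rho of Zp1 and Zp2 was 0.99, within M1 eggs (16) 0.89 and within M3 eggs (17) 0.66. Among 17 activated eggs the rho of Zp1 and Zp2 was 0.60 and that of Zp2 and Zp3 0.32. Among 24 wildtype eggs of batch 2 these were 0.61 and 0.35. Genes of the same egg share its library, and the levels are shares of the same total. The rho of Zp2 with total counts was -0.10 in the mutant eggs.

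**Figure D5:**
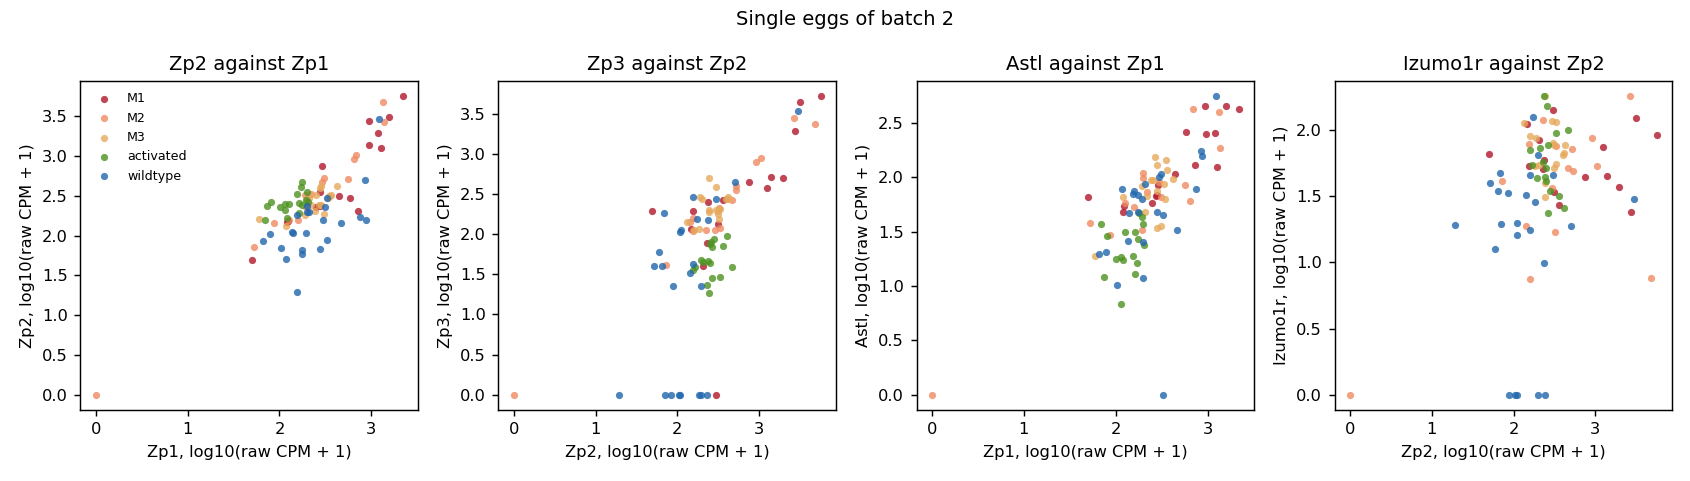
Levels of gene pairs in single eggs of batch 2, as log10(raw CPM + 1), coloured by group. Eggs high in Zp1 are high in Zp2, with rho 0.85 in 49 mutant eggs, Zp3 goes with Zp2 at 0.77 and Astl with Zp1 at 0.76, while the rho of Izumo1r with Zp2 is 0.01 over the mutant eggs and -0.18 in M1, 0.37 in M2 and -0.13 in M3 eggs.

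Among activated eggs, Zp3 had a median of 37.6 raw CPM in the 9 eggs listed with 2 growths, against 69.4 in the 8 listed with 1 growth, and the sets overlapped (17.3 to 78.4 and 27.8 to 92.6). Izumo1r went the other way, with medians of 69.5 and 37.0, again with overlap (42.2 to 151 and 22.7 to 179). No test was made, since no label ties these eggs to animals.

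Genes of the coat, its release and fusion were followed as lists, with the members described above among them. Each list is described by its genes called (edgeR adjusted p under 0.05) beside all genes tested. Of all genes tested, 9.38% were called in mutants and 13% in activated eggs, with median log2 folds of 0.06 and 0.15. Of 11 tested genes of the egg coat and its release, 0 were higher and 2 lower in mutants, and 0 higher and 5 lower in activated eggs, with medians of -0.13 and -1.03. These counts include Zp1 in both comparisons and Zp3 in activated eggs, and the mutant median is the fold of Zp3 itself. Furin, a protease that cuts precursor proteins on the secretory route, had a log2 fold of -0.78 ± 0.22 in mutants (edgeR adjusted p = 0.0301) and of -2.67 ± 0.40 in activated eggs (edgeR adjusted p = 2.83e-04). Plat, tissue plasminogen activator, had an activated fold of -1.82 ± 0.37 (edgeR adjusted p = 0.00350), and the oocyte-secreted Oosp3 one of -1.15 ± 0.37 (edgeR adjusted p = 0.0463).

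Of 26 tested genes of cortical granule content and exocytosis, 2 were higher and 1 lower in mutants and 1 higher and 1 lower in activated eggs, with medians of 0.13 and 0.02. The lower gene in activated eggs was Astl, described above. Neither count stands out beside the 9.38% and 13% of all genes called. Rab27a, a small GTPase of secretory vesicles, was higher in both, at 1.12 ± 0.24 in mutants (edgeR adjusted p = 0.00706) and 1.89 ± 0.34 in activated eggs (edgeR adjusted p = 0.00132). Its TMM-scaled level was 167 CPM in activated eggs and 66.1 to 110.2 in the 6 mutant sums, against 44.7 and 36.6 in the wildtype sums, so no mutant or activated sum overlapped with wildtype. Calr, calreticulin, was also higher in mutants (1.12 ± 0.27, edgeR adjusted p = 0.0145), and the SNARE gene Stx6 lower (-0.67 ± 0.20, edgeR adjusted p = 0.0461).

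Of 21 tested genes of sperm adhesion and fusion at the egg membrane, 2 were higher in mutants (Cd9 and Izumo1r) and 0 lower, while in activated eggs 1 was higher and 6 lower. The mutant count holds only the members described above and is close to the 9.38% of all genes called, and the activated count stands beside 13%. The medians were -0.02 and -0.33. In activated eggs the tetraspanin Cd151 stood at -2.30 ± 0.43 (edgeR adjusted p = 0.00172), the disulfide isomerase Pdia3 at -1.63 ± 0.33 (edgeR adjusted p = 0.00293) and the integrin Itga6 at -1.47 ± 0.33 (edgeR adjusted p = 0.00556). Radixin, Rdx, which ties membrane to actin, stood at -1.22 ± 0.31 (edgeR adjusted p = 0.0132) and the integrin Itgb1 at -2.13 ± 0.60 (edgeR adjusted p = 0.0310). The integrin Itga9 was the member that was higher (1.00 ± 0.30, edgeR adjusted p = 0.0344). The other lower gene was Igsf8, a partner of CD9 and CD81, with a fold of -3.93 ± 1.21 and 0.273 TMM-scaled CPM in activated eggs and 3.32 and 3.85 in the wildtype sums (edgeR adjusted p = 0.0386).

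JUNO needs a GPI anchor, and of 27 genes of GPI anchor synthesis 1 was higher and 1 lower in mutants and 1 higher and 0 lower in activated eggs, with medians of -0.01 and -0.50. These counts are no larger a share than that of all genes called (9.38% and 13%). Pigc, of the enzyme that starts the anchor, was higher in mutants (1.35 ± 0.29, edgeR adjusted p = 0.00645) and in activated eggs (2.27 ± 0.40, edgeR adjusted p = 9.40e-04). Pigt, of the complex that attaches the anchor to proteins, was lower in mutants (-1.86 ± 0.41, edgeR adjusted p = 0.00791). Of 11 transcription factors known for the zona genes and their oocyte programme, 0 were higher and 1 lower in mutants, and 1 higher and 1 lower in activated eggs, with medians of -0.33 and 0.38. The lower one was Lhx8 in both (-0.70 ± 0.20, edgeR adjusted p = 0.0352, and -1.51 ± 0.34, edgeR adjusted p = 0.00680). Tcf12, which encodes an E protein, was higher in activated eggs (1.29 ± 0.42, edgeR adjusted p = 0.0480).

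As a check on other cells, 21 genes that act in sperm were looked up. They summed to 8.46 to 33.4 raw CPM per sum, 2 of them had 0 counts in all eggs, and Izumo1 had 6 counts in all. Spam1 had the most, with 1255 counts in all and 27.6 raw CPM in the M1 sum of batch 2, and Tmem81 had 282 counts. Of the 7 tested, 1 passed, in activated eggs: Tmem81, with 0 counts in activated eggs against 10 counts in wildtype eggs of batch 2, too few for a fold to be given. Of 16 tested granulosa and cumulus markers 0 passed in mutants and 1, Serpine2, in activated eggs (-2.01 ± 0.32, edgeR adjusted p = 5.12e-04). Their summed level per sum was 238 to 354 raw CPM in mutants, 126 in activated eggs, and 313 and 301 in wildtype eggs of batches 1 and 2. Serpine2 held most of it, with 70.3 raw CPM in activated eggs and 274 and 247 in the wildtype sums. Ptx3 had 0 counts in all eggs, and Fshr had 6, while Cyp19a1 had 2627, Col4a1 1522 and Nr5a2 1416. Of 3 tested blood and 4 tested theca, stroma and endothelium markers 0 passed in either comparison (edgeR).

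Other oocyte transcripts moved as well. Of 14 tested oocyte markers, Zp1, Zp2 and Zp3 included, 2 were higher and 6 lower in mutants, and 0 higher and 6 lower in activated eggs, with medians of -0.40 and -0.74. Over all genes tested, 5.36% were higher and 4.03% lower in mutants, and 5.66% higher and 7.33% lower in activated eggs. In mutants the lower ones were Zp1, Zar1 (-1.27 ± 0.16, edgeR adjusted p = 9.28e-05), Gdf9 (-1.19 ± 0.15, edgeR adjusted p = 1.39e-04), H1f8 (-1.24 ± 0.17, edgeR adjusted p = 1.71e-04), Padi6 (-0.95 ± 0.19, edgeR adjusted p = 0.00498) and Dppa3 (-0.77 ± 0.18, edgeR adjusted p = 0.0131). The higher ones were Nlrp5 (0.88 ± 0.25, edgeR adjusted p = 0.0394) and Bmp15 (0.66 ± 0.20, edgeR adjusted p = 0.0440). In activated eggs the lower ones were Zp1, Zp3, Zar1 (-3.60 ± 0.31, edgeR adjusted p = 1.02e-05), H1f8 (-3.39 ± 0.33, edgeR adjusted p = 1.55e-05), Gdf9 (-2.54 ± 0.29, edgeR adjusted p = 2.80e-05) and Padi6 (-2.42 ± 0.35, edgeR adjusted p = 2.61e-04). The 11 markers other than the coat genes summed to 7614 raw CPM in activated eggs, to 11972 to 17748 in the mutant sums of batch 2, and to 18212 in the wildtype sum of that batch. In the single eggs of batch 2 they ran from 5669.8 to 10324 raw CPM in activated eggs, from 7011 to 48836 in mutant eggs and from 7417 to 43474 in wildtype eggs. The part of this general difference in the zona results was not tested.

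The genes closest in pattern to each member were sought among 6037 genes over the 9 sums, by Pearson's r of log2 TMM-scaled CPM with batch means taken out. They were Fbxw19 (0.978) and Hat1 (0.973) for Zp1, Mrpl57 (0.964) and Cops3 (0.960) for Zp2, and Brf2 (0.989) and Lrrc8d (0.986) for Zp3. For Astl they were Tmem59 (0.995) and Pinx1 (0.994), for Izumo1r Kpna2 (0.973) and Calm2 (0.964), for Cd9 Foxr1 (0.976) and Tm2d1 (0.970), and for Cd81 Cep170 (0.930) and Stam (0.891). Between members, Astl was closest to Zp3 (0.90) and to Zp1 (0.88), Cd9 was closest to Izumo1r (0.85) and to Zp2 (0.79), and Zp1 with Zp2 reached 0.47. These are descriptions over 9 sums that share plates.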

How the data were processed

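Libraries of single eggs were made with the Smart-seq2 method, per the labels' protocols; it copies polyadenylated transcripts and does not mark strand. The authors deposited raw counts per gene and egg, as whole numbers. STAR, HTSeq and the mouse builds GRCm38 and mm10 are named in the submitters' processing notes, with no version or annotation known here. Raw CPM scales the counts of each egg or sum to a common total, so a level is a share and need not follow the amount per egg.

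No label ties eggs to animals, so eggs were not taken as replicates. Counts were added up per group and batch (9 sums, 3 residual degrees of freedom), and p-values measure only how these sums vary, which may be technical. The model held group and batch and was fitted in edgeR 4.0.16 under R 4.3.3 by robust quasi-likelihood, after TMM scaling and filterByExpr with a minimum count of 10. The 13832 p-values were adjusted by Benjamini-Hochberg and read at 0.05. The mutant fold is the mean of M1, M2 and M3 over wildtype. Mutant groups were fitted in 9 sums per plate with plate as a block (4 residual degrees of freedom, 11009 genes), plates being read from library names, with batch 1 as 1 plate. Activated eggs were 1 sum, assumed to vary like the others, and the batch term let sums of batch 1 enter their folds. A standard error is the fold over the root of its F statistic. Intervals of ratios are exact, at 95%, and cover counting error only, since reads carry no molecular identifiers. Many counts are even, as are the Cd9 counts of wildtype eggs of batch 2 (10, 14 and 26). If reads were counted in pairs, which was not tested, these intervals and the bound for M2 egg 14 are too tight even for counting error. Means over eggs added 0.5 to each count and were fitted with limma 3.58.1.

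The members and lists were chosen with earlier results of these data known. Besides members, up to 6 called genes per list and comparison are named by p, and the 2 genes most like each member with at least 4 mean log2 CPM. Nlrp5 and Bmp15 lie beyond that limit, and they, Igsf8 and single eggs were named after their values were seen. Alternatives added after seeing the data left out wildtype egg 45 or the highest zona egg of each sum, took log2 of mean CPM, let the mutant effect differ by batch, or took ratios of sums without M1 egg 6 or the highest zona eggs. The planned ones used other scaling (RLE, upper quartile), all genes, DESeq2 1.42.0, voom, eggs thinned to 60000 counts, no near-empty eggs, no wildtype eggs (9) in which 50 genes held over 35% of counts, means over eggs, other sums, no batch or plate term, and each sum left out in turn.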

Additional observations from a re-analysis of the deposited data

Results flagged for a closer look

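Within sets of 4 to 10 eggs, an egg was singled out where its gap to the next egg took an unusually large share of the set's range. Of 28 sets tested, 7 had such an egg. The limits used give about 5% of sets by chance only if levels are normally spread and sets are independent. Levels of single eggs with long upper tails need not follow this, and the flags of Zp1, Zp2 and Zp3 fall on the same egg. The 7 sets are thus a description, and no excess over chance is read from them. In M1 egg 6 of batch 1, Zp1 stood at 918 raw CPM (next 138.8), Zp2 at 2713 (next 318) and Zp3 at 1334 (next 219.9) among 4 eggs. In M1 egg 9 of batch 1, Cd81 stood at 4.38 raw CPM (next 0.650). Among 8 activated eggs with 1 growth, egg 1 held 179 raw CPM of Izumo1r (next 75.7). Among 9 activated eggs with 2 growths, egg 10 held 78.4 raw CPM of Zp3 (next 46.2) and egg 11 held 27.4 of Cd81 (next 5.53).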

How the results depend on the processing

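No paired analysis was possible because each unit is a sum over all eggs of a group and batch or plate, which carries no replicate number. Members called in mutant against wildtype eggs (3) numbered 0 without a batch term and 0 with sums per plate, and 1 to 3 when 1 sum was left out, with 1 without the batch 1 sum of M1, M2 or wildtype. In activated against wildtype eggs (3) they numbered 5 with eggs thinned, 0 without a batch term, 1 with sums per plate, and 3 each time 1 sum was left out. In mutant against activated eggs (3) they numbered 0 without a batch term, 0 with sums per plate, and 2 to 4 with 1 sum left out. In M2 against M1 (0) DESeq2 gave 1, no filter 1 and each left-out sum 0, and in M3 against M1 (0) DESeq2 gave 3, no filter 4 and left-out sums 0 to 2. A like count can hold other members: in mutants 2 were called with eggs thinned (Zp2 and Cd9) and 4 as mean log2 CPM (Zp2, Zp3, Izumo1r and Cd9). Genes called fell to 51, 196 and 35 without a batch term and to 110, 137 and 7 with sums per plate, against 1298, 1797 and 670. With eggs thinned, 1092 of 8868 genes were called in mutant and 1674 of 8868 in activated against wildtype eggs. The causes were not tested.

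The directions below turned for values that did not pass in the test described in the report; of the turned values of Zp3 in mutants, 0.76, 1.45 and 1.58 passed (limma adjusted p = 0.0409, 9.85e-07 and 4.85e-06). In mutant against wildtype eggs, the log2 fold of Zp3 became 0.61 with eggs thinned, 0.47 without the highest zona egg of each sum, 0.76 as log2 of mean CPM, 1.45 and 1.58 as mean log2 CPM over eggs of at least 10000 counts and over all eggs, 0.12 with sums per plate, 0.78 without egg 45 and -0.38 to 0.14 with 1 sum left out. Astl became 0.047 with eggs thinned, 0.069 as mean log2 CPM over all eggs and 0.10 with sums per plate, and Cd81 -0.32 and -0.060 as mean log2 CPM and -0.34 to 1.58 with 1 sum left out. In activated against wildtype eggs, Zp2 became 0.068 with eggs thinned, 0.12 without the highest zona eggs, 0.14 as log2 of mean CPM, 0.80 and 0.74 as mean log2 CPM, 0.59 without egg 45 and -0.74 to 0.51 with 1 sum left out. Cd81 became 0.033 with eggs thinned, 0.069 without the highest zona eggs, 0.14 under voom, 0.51 as log2 of mean CPM, 0.35 with mutant eggs in 1 sum, 0.19 without a batch term, 1.08 with sums per plate, 0.095 under upper quartile scaling and -0.84 to 0.59 with 1 sum left out. In mutant against activated eggs, Izumo1r became -0.37 with eggs thinned, -0.090 as log2 of mean CPM and -0.18 as mean log2 CPM, Cd9 -0.13 as mean log2 CPM, and Cd81 -0.28 with sums per plate and -0.47 to 1.59 with 1 sum left out. In M2 against M1, Izumo1r became 0.0066 without the highest zona eggs and -0.22 to 0.18 with 1 sum left out, and Cd9 -1.23 to 0.064 with 1 sum left out. In M3 against M1, Izumo1r became 0.027 without the highest zona eggs, 0.059 as mean log2 CPM and -0.18 to 0.23 with 1 sum left out, and Cd81 0.10, 0.55 and -1.93 to 1.23 in the same settings. Upper quartile scaling moved the median of all genes in activated against wildtype eggs to 0.30, against 0.15 under TMM. Few counts limit Cd81 and Cd9 in wildtype eggs of batch 2, with 7 and 50 in all. With eggs thinned, Cd9 was seen in 36 of 49 mutant, 15 of 17 activated and 3 of 24 wildtype eggs of batch 2. The mutant log2 fold of Cd9 was then 2.37 ± 0.51 (edgeR adjusted p = 1.80e-04).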
